A study of Sus scrofa with 11 samples.

Results

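The contractile programme of vascular smooth muscle is described here by 37 genes, from actins and myosins to the proteins that anchor them in the cell. Its members were taken from the count table by gene name, and 35 of the 37 were found among 35670 genes. The names SYNM and FHL1 were not attached to any gene in the table. Every member found passed the filter on low counts, which left 15930 genes in the test.

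RNA was sequenced, after poly-A selection, from the carotid artery of pigs that ate a high-fat, high-calorie Western diet for 12 weeks. In the SWNT-SHP1i group, single-walled carbon nanotubes that carried a chemical inhibitor of SHP-1, a tyrosine phosphatase, were infused into a vein every week at 400 nM under general anaesthesia. In the SWNT group the nanotubes were infused at 400 nM without the inhibitor, on the same diet and schedule. The study was designed around macrophages, asking whether blocking SHP-1 in these cells lowers inflammation and the load of dying cells in the artery. The series lists 6 SWNT-SHP1i and 5 SWNT animals. SWNT-SHP1i replicate 4 is labelled as having died before harvest and was not analysed here, so each group had 5 libraries from separate animals. Sex, breed and age are not among the labels, and no group without nanotubes or on another diet was analysed.

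Smooth muscle cells of the arterial media shorten when myosin II slides along actin filaments. Calcium, released from the sarcoplasmic reticulum or entering through the membrane, binds calmodulin and activates a kinase that phosphorylates the myosin regulatory light chain, and a phosphatase reverses it. The filaments are held by dense bodies in the cytoplasm and by dense plaques at the membrane, and most genes of the programme are under the control of serum response factor and myocardin. In atherosclerosis, smooth muscle cells that enter the intima are known to lose these contractile proteins.

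The 35 genes took up a large share of each library. They held 6.97%, 8.45%, 6.37%, 11.11% and 3.90% of all counts in SWNT-SHP1i replicates 1, 2, 3, 5 and 6, against 9.31%, 12.8%, 12.4%, 9.29% and 12.4% in SWNT replicates 1 to 5. Total counts were 27593564 to 39413481 in SWNT-SHP1i libraries and 32931527 to 47718854 in SWNT libraries. At this depth the widest 95% Wilson interval of a share spans 0.0225 percentage points, which covers counting error only. In bulk artery RNA, fewer smooth muscle cells and less contractile RNA per cell cannot be told apart. Both defining members, ACTA2 and MYH11, had at least 2399.5 CPM (counts scaled to a library of 1000000) in every library.

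Markers of other cell types were summed in each library, and their part in the results below was not tested. In none of these lists did a gene pass the adjusted test. The summed level of 11 macrophage markers was 415 to 2322 CPM with a median of 1459 in SWNT-SHP1i libraries, against 401 to 1208 with a median of 529.7 in SWNT libraries. Of the macrophage markers all 11 had a positive fold change, with 10 at an unadjusted p under 0.05, as were 3.49% of all genes in that direction, and the smallest p for the scavenger receptor CD163 (log2 fold change 1.82 ± 0.45, SE, 95% interval 0.84 to 2.80) and the co-receptor CD14 (1.71 ± 0.56, 95% interval 0.48 to 2.93, but 0.87 without SWNT-SHP1i replicate 6). The sum of 9 fibroblast markers, mostly collagens, was 68112 to 103481 CPM in SWNT-SHP1i libraries and 39771 to 82181 CPM in SWNT libraries. All 9 had a positive fold change, led by the Wnt-binding proteins SFRP2 (4.88 ± 1.31, 95% interval 2.03 to 7.73, but 1.97 without SWNT-SHP1i replicate 6) and SFRP4 (1.21 ± 0.34, 95% interval 0.46 to 1.96), and 4 reached an unadjusted p under 0.05. The library lowest in the contractile genes, SWNT-SHP1i replicate 6, had the highest macrophage sum, 2322 CPM. SWNT-SHP1i replicate 5, highest in its group for most contractile genes, had the lowest macrophage sum of its group, 415 CPM. None of the markers in either list was at 0 in every library.

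Pericytes and skeletal muscle share contractile genes with smooth muscle. The sum of 6 pericyte markers was 1523 to 4059 CPM in SWNT-SHP1i and 2856 to 4284 CPM in SWNT libraries, and 4 of the 6 had a negative fold change, with the smallest p for the receptor NOTCH3 (-0.65 ± 0.28, 95% interval -1.27 to -0.04) and the proteoglycan CSPG4 (-0.60 ± 0.26, 95% interval -1.17 to -0.03). The skeletal muscle sum was 9.68 to 169 CPM in SWNT-SHP1i and 9.01 to 24.9 CPM in SWNT libraries. Most of it was the creatine kinase CKM (mean 85.8 CPM in SWNT-SHP1i and 14.0 CPM in SWNT, log2 fold change 2.61 ± 0.69, 95% interval 1.11 to 4.12), with the troponin TNNI2 next by p (2.05 ± 1.18, 95% interval -0.52 to 4.62). Of the 10 genes found, only 4 had enough counts for the test, all with a positive fold change. The skeletal actin ACTA1 had at most 0.196 CPM outside SWNT-SHP1i replicate 6 (3.41 CPM). The myosins MYH1 and MYH2 had at most 0.182 CPM in any library. MYLPF, MB and TTN were not found. Skeletal muscle counts were therefore low beside those of the contractile genes.

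Across the programme, fitted levels were lower with the inhibitor for nearly every member, yet none passed a test adjusted for the number of genes. In edgeR's quasi-likelihood test with Benjamini-Hochberg adjustment, 0 of 15930 genes (0%) and 0 of the 35 members had an adjusted p under 0.05. The smallest adjusted p over all genes was 0.997, so the 95% intervals given for single genes hold before any adjustment for the number of genes. At an unadjusted p under 0.05, 8 of the 35 members (22.9%) were lower in SWNT-SHP1i, where 1.15% of all genes were, and 0 members were higher, where 3.49% of all genes were. DESeq2 and limma-voom also called 0 members. At the same unadjusted limit DESeq2 gave 9 lower members (25.7%, against 1.37% of all genes) and limma-voom 12 (34.3%, against 3.92%). In animals with B9 numbers alone, edgeR gave 4 (11.4%, against 0.586% of all genes). The log2 fold change of SWNT-SHP1i over SWNT was below 0 for 34 of 35 members (97.1%) and for 49.2% of all genes. Its median was -0.42 over the members and 0.01 over all genes tested. Without SWNT-SHP1i replicate 6 the median was -0.32 and 28 of 35 members were below 0, against 51.7% of all genes. These counts describe a list chosen with earlier results of these data known, and they are not a test of it.

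**Figure D1:**
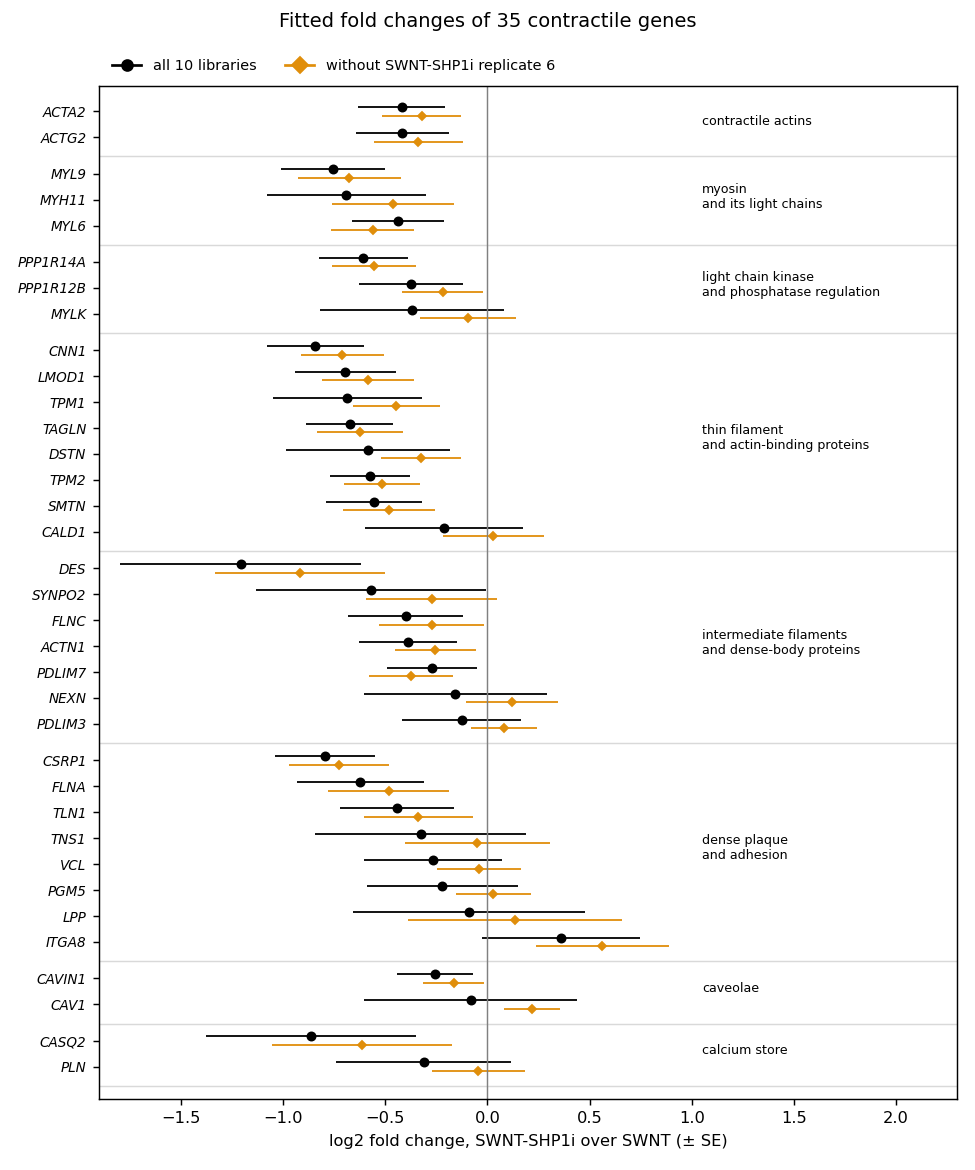
Fitted log2 fold change of SWNT-SHP1i over SWNT (horizontal axis, with ± SE bars) for each of the 35 contractile genes, ordered by role from top to bottom. Black circles use all 10 libraries and orange diamonds leave out SWNT-SHP1i replicate 6. With all libraries 34 of 35 genes lie left of 0, from -1.21 for DES to 0.36 for ITGA8. Without replicate 6, 28 of 35 do.

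Of the thin filament genes, 5 of 8 were among the 10 best separated members. CNN1 encodes calponin, an actin-binding inhibitor of the myosin ATPase (chromosome 2, 70183364 to 70190752, Sscrofa11.1). It was at 2117, 3120.1, 2488, 3389 and 1578 CPM in SWNT-SHP1i replicates 1, 2, 3, 5 and 6, against 3903, 5016, 5563, 3622 and 4633 CPM in SWNT replicates 1 to 5. Every SWNT-SHP1i library was below every SWNT library, although SWNT-SHP1i replicate 5 and SWNT replicate 4 were close. Among the 35 members CNN1 alone (2.86%) had groups that did not overlap, as did 0.276% of all genes in the same direction. Its log2 fold change was -0.84 ± 0.24 (SE, 95% interval -1.36 to -0.32), and without SWNT-SHP1i replicate 6 it was -0.71 ± 0.20.

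TAGLN encodes transgelin, an actin-bundling protein used as a marker of differentiated smooth muscle (chromosome 9, 44560785 to 44567385). Its CPM were 4683, 6519.6, 5908, 7486 and 5089 in SWNT-SHP1i libraries and 7084, 10279, 11878, 8036 and 10068 in SWNT libraries. The groups overlapped only through SWNT-SHP1i replicate 5, which lay above SWNT replicate 1, and the log2 fold change was -0.67 ± 0.21 (95% interval -1.14 to -0.21). TPM2, a tropomyosin that lies along the actin filament (chromosome 1, 236402251 to 236410905), was at 2409.7, 2626, 2678, 3143 and 2182 CPM in SWNT-SHP1i libraries, against 2807, 4484, 4527, 3582 and 4014 CPM in SWNT libraries. Here too the single crossing was SWNT-SHP1i replicate 5 over SWNT replicate 1 (-0.57 ± 0.20, 95% interval -1.003 to -0.15).

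LMOD1, leiomodin, nucleates actin filaments in smooth muscle (chromosome 10, 24164792 to 24193820). It was at 1081, 1165, 934, 1637 and 761 CPM in SWNT-SHP1i libraries and 1356, 1879.5, 2355, 1373 and 2062 CPM in SWNT libraries (-0.69 ± 0.25, 95% interval -1.24 to -0.15), with SWNT-SHP1i replicate 5 above SWNT replicates 1 and 4. The second tropomyosin gene, TPM1 (chromosome 1, 108986986 to 109020035), was at 2248, 3179.7, 2107, 3899.5 and 655 CPM in SWNT-SHP1i libraries, against 3301, 4393, 4009.9, 3416 and 4333 CPM in SWNT libraries. Replicate 6 was far below the other SWNT-SHP1i libraries for TPM1 but not for TPM2, and the fold change of TPM1, -0.69 ± 0.37, was -0.45 ± 0.21 without it. SMTN, smoothelin, a protein of contractile stress fibres, had a fold change of -0.56 ± 0.24 (95% interval -1.07 to -0.04), and its position overlaps a gene without a symbol on the opposite strand.

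The other 2 thin filament genes were far lower in replicate 6 than in any other library. DSTN, destrin, which severs actin filaments, had 324 CPM in SWNT-SHP1i replicate 6, with 1642 to 2448 CPM in the other SWNT-SHP1i libraries, against 1876 to 3019 CPM in SWNT libraries. Its fold change was -0.59 ± 0.40 with all libraries and -0.32 ± 0.20 without replicate 6. CALD1, caldesmon, which holds back the actin-activated ATPase, had 396 CPM in that library, with 1243 to 2713 CPM in the other SWNT-SHP1i libraries, against 1301 to 2201 CPM in SWNT libraries. The fold change of CALD1 was -0.21 ± 0.39 with all libraries and, without replicate 6, 0.03 (95% interval -0.51 to 0.57), so a moderate change in either direction is within its error. Over the 8 thin filament genes the median was -0.63, against 0.01 over all genes. Of the 8, 5 were lower at an unadjusted p under 0.05, as were 1.15% of all genes.

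**Figure D2:**
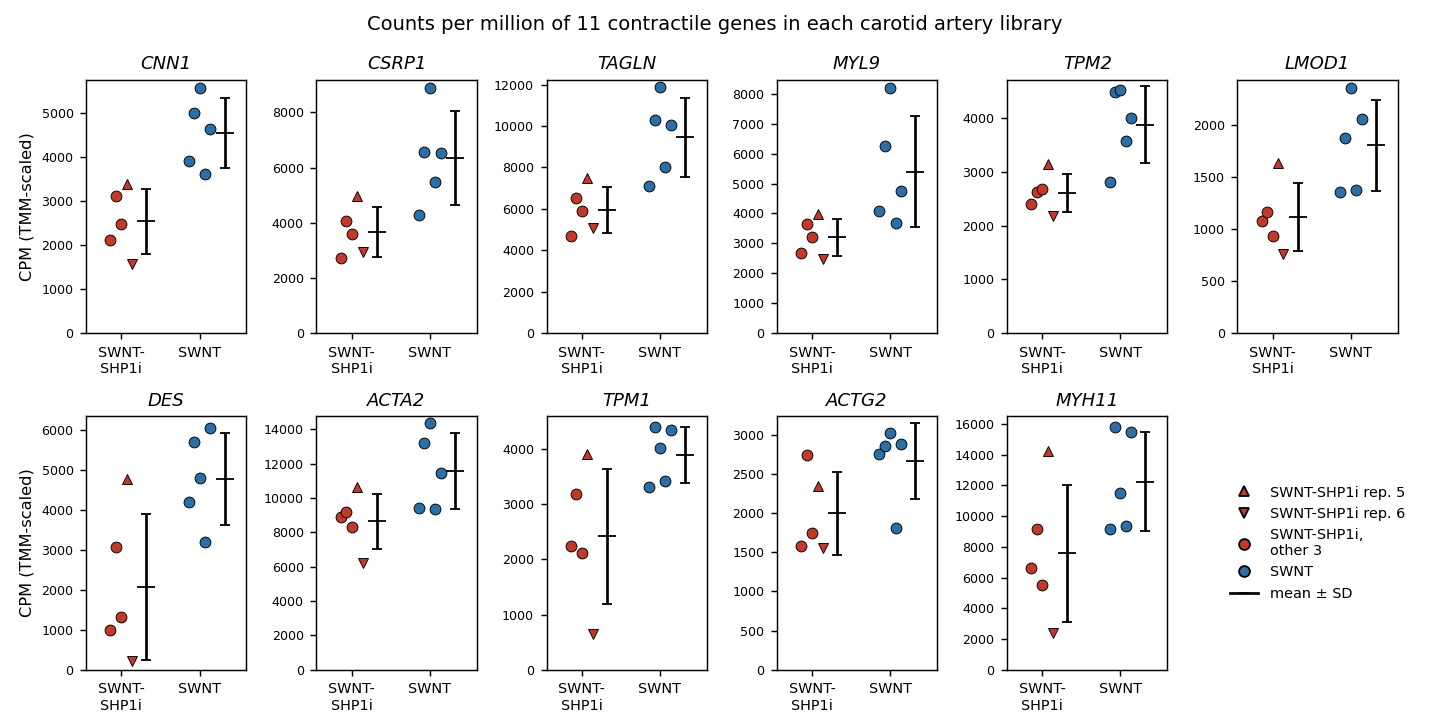
Scaled CPM (vertical axes, each from 0) of 11 contractile genes, with 1 point for each library, SWNT-SHP1i left and SWNT right in each panel. Upward triangles mark SWNT-SHP1i replicate 5, downward triangles replicate 6, and bars the mean ± SD of 5 libraries. CNN1 is the gene whose groups do not overlap, at 1578 to 3389 in SWNT-SHP1i and 3622 to 5563 in SWNT.

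The contractile actins had smaller differences. ACTA2 encodes smooth muscle alpha-actin, the most abundant member per length of transcript (chromosome 14, 100867733 to 100886713). Its CPM were 8891, 9205, 8283, 10636 and 6196 in SWNT-SHP1i libraries and 9432, 13193, 14341, 9378 and 11436 in SWNT libraries. Only SWNT-SHP1i replicate 5 was inside the SWNT range, and the fold change was -0.42 ± 0.21 (95% interval -0.88 to 0.04). ACTG2, gamma-actin of visceral smooth muscle (chromosome 3, 69096782 to 69121351), was at 1579, 2749, 1748, 2354 and 1558 CPM in SWNT-SHP1i libraries, against 2754, 2861, 3020.2, 1814 and 2882 CPM in SWNT libraries. SWNT replicate 4 stood well below the other SWNT libraries and overlapped with SWNT-SHP1i (-0.42 ± 0.23, 95% interval -0.91 to 0.08).

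Of the myosin subunits, MYH11, the smooth muscle myosin heavy chain (chromosome 3, 7002735 to 7143095), had a wide spread between animals, with an SD of log2 CPM of 0.957 in SWNT-SHP1i and 0.38 in SWNT. It was at 6612, 9188, 5511, 14276 and 2399.5 CPM in SWNT-SHP1i libraries and 9165, 15825, 11502, 9342 and 15458 CPM in SWNT libraries. Replicate 5 was within the upper part of the SWNT range and replicate 6 far below it. The fold change was -0.69 ± 0.39 (95% interval -1.54 to 0.16), -0.46 without replicate 6 and -1.05 without replicate 5. Its position overlaps NDE1 on the opposite strand, and since the strand setting of the counting is not given in the sources used here, reads of such pairs cannot be told apart.

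MYL9, the regulatory light chain that the kinase phosphorylates (chromosome 17, 39788199 to 39795293), was at 2680.4, 3648, 3199, 3979 and 2488 CPM in SWNT-SHP1i libraries, against 4082, 6270.5, 8187, 3670.4 and 4761 CPM in SWNT libraries. SWNT-SHP1i replicate 5 exceeded SWNT replicate 4, and all other pairs of libraries were ordered with SWNT-SHP1i lower (-0.75 ± 0.25, 95% interval -1.31 to -0.20). The gene overlaps TGIF2 on the same strand. MYL6, the essential light chain found in smooth muscle and other cells alike (chromosome 5, 21559029 to 21562413), was at 1308, 1583, 1784, 1762 and 2326 CPM in SWNT-SHP1i libraries and 1680.3, 2367, 3285, 2287 and 2252 CPM in SWNT libraries. For MYL6 replicate 6 was the highest SWNT-SHP1i library, the opposite of its place for MYH11, and the fold change of -0.44 ± 0.23 was -0.56 ± 0.20 without it (95% interval -1.01 to -0.12).

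Genes for the light chain kinase and for myosin phosphatase regulation overlapped between the groups to unequal degrees. MYLK, the light chain kinase (chromosome 13, 136509755 to 136809668), was at 1327, 1646, 1052, 2059.9 and 199.7 CPM in SWNT-SHP1i libraries, against 1427, 1867, 1189, 1465 and 2167 CPM in SWNT libraries. Apart from replicate 6 the groups covered nearly the same range, and without that library the fold change was -0.09 (95% interval -0.61 to 0.42) instead of -0.37. PPP1R14A, which encodes CPI-17, the protein kinase C-dependent inhibitor of myosin phosphatase (chromosome 6, 47167118 to 47174091), was at 366, 495, 487, 465 and 371 CPM in SWNT-SHP1i libraries and 457, 776, 907, 577 and 608 CPM in SWNT libraries. SWNT replicate 1 was the only SWNT library within the SWNT-SHP1i range (-0.61 ± 0.22, 95% interval -1.08 to -0.13). PPP1R12B, a targeting subunit of myosin phosphatase, had a fold change of -0.37 ± 0.25 (95% interval -0.93 to 0.18).

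Intermediate filament and dense-body genes included the member with the most negative fold change. DES encodes desmin, the intermediate filament of muscle cells that links dense bodies (chromosome 15, 121427642 to 121435423). It was at 983, 3068, 1306, 4757 and 227 CPM in SWNT-SHP1i libraries, against 4179.6, 5683, 4788, 3187 and 6039 CPM in SWNT libraries. Replicates 1, 3 and 6 were each under the lowest SWNT library by a wide margin, while replicate 5 was within the SWNT range. The fold change was -1.21 ± 0.59 (95% interval -2.49 to 0.07), and -0.92 ± 0.42 without replicate 6.

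The other 6 genes of this role had fold changes of -0.57 to -0.13, each with an interval that includes 0. SYNPO2, the actin-bundling synaptopodin-2, was at 59.2 CPM in replicate 6 and 1441 CPM in replicate 5, against 741 to 1305 CPM in SWNT libraries. ACTN1, alpha-actinin of dense bodies, had -0.39 ± 0.24, and FLNC, the muscle filamin, -0.40 ± 0.28. The PDZ and LIM proteins PDLIM7 and PDLIM3 had -0.27 ± 0.22 and -0.13 ± 0.29, and the filament-binding nexilin gene NEXN -0.16 ± 0.45. SYNM, the intermediate filament partner of desmin, is named here by position only and was not counted as a member. At that position counts were 0.125 to 72.7 CPM in SWNT-SHP1i libraries and 2.23 to 34.1 CPM in SWNT libraries.

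At the dense plaques, CSRP1 had the most negative fold change, with an interval that overlaps those of FLNA and TLN1. CSRP1 encodes a LIM protein that binds alpha-actinin and zyxin (chromosome 10, 23843134 to 23864016). Its CPM were 2735, 4065, 3594, 4956 and 2924 in SWNT-SHP1i libraries and 4269, 6561, 8876, 5482 and 6520.3 in SWNT libraries. Replicate 5 lay above SWNT replicate 1, and SWNT-SHP1i was lower in all other pairs (fold change -0.80 ± 0.25, 95% interval -1.33 to -0.26).

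FLNA, the actin cross-linking filamin A on chromosome X, was at 8229 to 22674 CPM with SWNT-SHP1i replicate 6 lowest and replicate 5 highest, against 11785 to 29126 CPM in SWNT libraries (-0.62 ± 0.31, 95% interval -1.30 to 0.05). TLN1, talin, which couples integrins to actin, had -0.44 ± 0.28 (95% interval -1.05 to 0.16), and overlaps CREB3 on the opposite strand. VCL, vinculin, which binds talin, had -0.27 ± 0.34 with all libraries and -0.04 (95% interval -0.49 to 0.41) without replicate 6, and overlaps AP3M1 on the opposite strand. TNS1, tensin, and PGM5, a component of adherens junctions, had -0.33 ± 0.52 and -0.22 ± 0.37 with all libraries, and -0.05 and 0.03 without replicate 6. LPP, a LIM protein of focal adhesions, was counted at only 0.869 to 6.95 CPM in SWNT-SHP1i and 2.21 to 3.93 CPM in SWNT libraries, too low to show a moderate difference (-0.09 ± 0.57), and whether its gene model in the table is complete was not tested.

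ITGA8, the integrin alpha subunit that pairs with beta 1, was the single member with a positive fold change, 0.36 ± 0.39 (95% interval -0.48 to 1.20). It was at 1028, 269.8, 699, 634 and 227 CPM in SWNT-SHP1i libraries, against 319.9, 547, 344, 423 and 592 CPM in SWNT libraries. Replicates 1, 3 and 5 were above every SWNT library and replicates 2 and 6 below every one, so the groups had no common direction. The median over the 8 dense plaque genes was -0.30 with all libraries and -0.05 without replicate 6.

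Caveolae, the membrane pits where calcium channels and signalling proteins gather, gave 2 members. CAV1, the coat protein caveolin-1 (chromosome 18, 29649992 to 29682465), was at 117, 76.9, 96.8, 86.6 and 5.28 CPM in SWNT-SHP1i libraries and within 77.1 to 85.9 CPM in all 5 SWNT libraries. SWNT-SHP1i replicates 1, 3 and 5 were above the narrow SWNT range, and replicate 2 was just below it. In replicate 6 CAV1 was at 0.056 of the mean of the other SWNT-SHP1i libraries, the lowest such ratio of any member. Its fold change was -0.08 ± 0.52 with all libraries and 0.22 (95% interval -0.08 to 0.52) without that library. CAVIN1, which stabilises the coat, was at 781 CPM in replicate 6 and 1018 to 1303 CPM in the other SWNT-SHP1i libraries, against 1165 to 1405 CPM in SWNT libraries (-0.26 ± 0.19).

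The calcium store was represented by CASQ2, the calcium-binding calsequestrin, and PLN, phospholamban, which inhibits the calcium pump of the sarcoplasmic reticulum. CASQ2 was at 35.2, 115, 41.3, 161 and 17.1 CPM in SWNT-SHP1i libraries and 105, 177, 113, 90.7 and 188 CPM in SWNT libraries (-0.86 ± 0.51, 95% interval -1.98 to 0.25). It followed the order of DES, with replicates 1, 3 and 6 under the SWNT range and replicates 2 and 5 within it. PLN was at 11.4 CPM in replicate 6 and 58.1 to 87.9 CPM in the other SWNT-SHP1i libraries, against 44.1 to 103 CPM in SWNT libraries, and it overlaps CEP85L on the opposite strand.

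The SWNT-SHP1i animals were far from alike in this programme. The median deviation of the 35 genes from their SWNT mean was -0.45, -0.38, -0.59, 0.04 and -1.30 on the log2 scale in SWNT-SHP1i replicates 1, 2, 3, 5 and 6. In SWNT replicates 1 to 5 it was -0.23, 0.24, 0.05, -0.28 and 0.17. Replicate 5 thus sat at the SWNT level, replicates 1 to 3 moderately below, and replicate 6 far below. Among all 10 libraries replicate 6 was the lowest for 29 members, and within its group replicate 5 was the highest for 27. The SD of log2 CPM between libraries had a median of 0.53 in SWNT-SHP1i and 0.33 in SWNT, and was larger in SWNT-SHP1i for 26 of 35 genes.

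**Figure D3:**
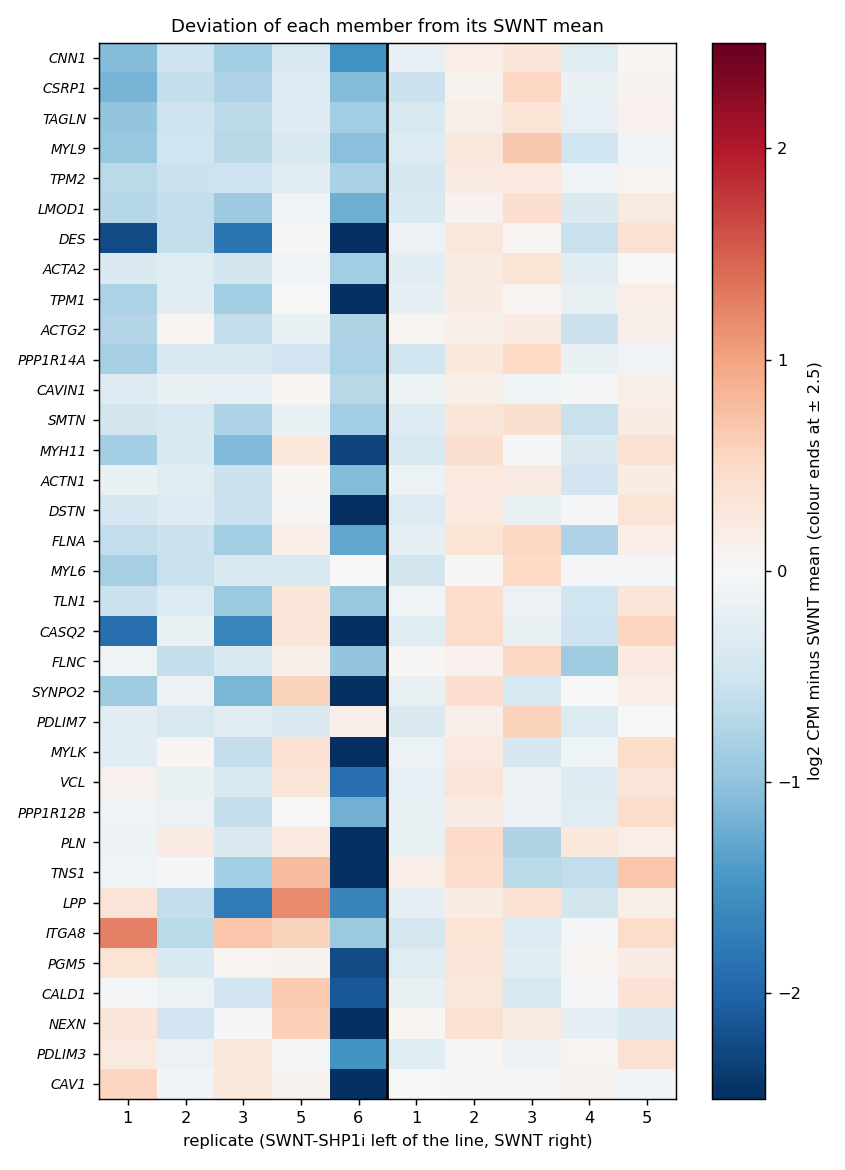
Deviation of each contractile gene (vertical axis) from its SWNT mean in log2 CPM, for each library, with SWNT-SHP1i replicates left of the black line and SWNT replicates right of it. Blue is below and red above the SWNT mean, and the colour ends at 2.5 in each direction. Replicate 6 is blue for nearly all genes, with a median of -1.30, while replicate 5 has a median of 0.04.

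Counting the genes below the SWNT range separates replicates 1 to 3 from replicate 5. In SWNT-SHP1i replicate 1, 18 of 35 members (51.4%) were below the lowest SWNT library, against 16.6% of all genes. In replicate 2 there were 17 (48.6%), against 14.5% of all genes, and in replicate 3 there were 25 (71.4%), against 33.4%. In replicate 5, CNN1 was the single such member (2.86%), against 17.6% of all genes. Replicate 6 had 33 (94.3%), against 38.6%, the exceptions being PDLIM7 and MYL6. Above the highest SWNT library were 3 members in replicate 1 (8.57%, against 18.2% of all genes), 0 in replicate 2 (against 14.8%), 2 in replicate 3 (5.71%, against 25.2%) and 0 in replicate 6 (against 34.2%). In replicate 5 there were 7, which is 20% of the members and also 20% of all genes. Replicates 3 and 6 were also outside the SWNT range more often than the other libraries over all genes, so their member counts stand on a wider spread.

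**Figure D4:**
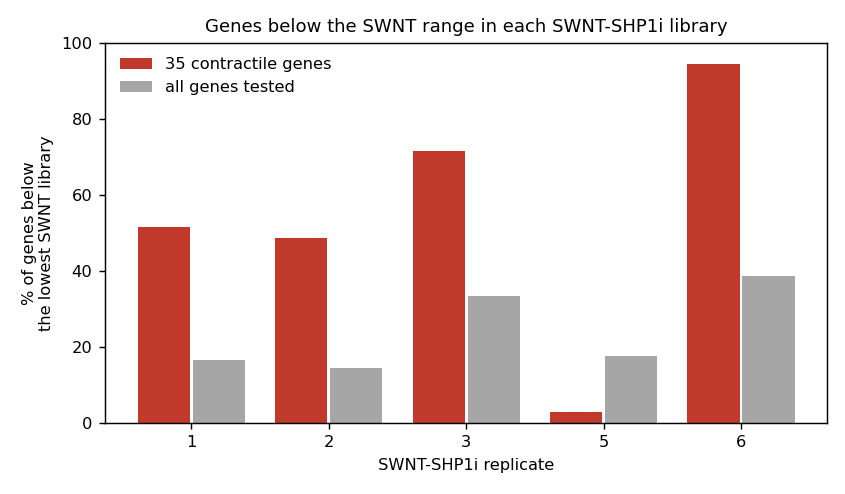
Percentage of genes below the lowest of the 5 SWNT libraries (vertical axis, 0 to 100) in each SWNT-SHP1i replicate (horizontal axis), for the 35 contractile genes in colour and for all genes tested in grey. The members' bar is above the grey bar in replicates 1, 2, 3 and 6, highest in replicate 6 at 94.3%, and below it in replicate 5 at 2.86%.

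The members were not equally low in replicate 6. Relative to the mean of the other SWNT-SHP1i libraries, 18 members were under 0.5 of that level, 12 of them under 0.25, and 2 were above it. Measured by the mean log2 CPM, 48.6% of the members and 26.5% of all genes were under 0.5 of that level. On the log2 scale the median difference between replicate 6 and the other 4 was -0.997 over the members and -0.02 over all genes. It was -1.73 over 8 further caveola and calcium store genes and -0.95 over 20 dystrophin complex and other adhesion genes. Over 14 non-muscle relatives of the members it was -0.06. In the same order, 62.5%, 45% and 7.14% of these genes were under 0.5 of the level of the other 4. A low replicate 6 was thus not particular to the members. By role, the median difference was -2.38 for the 2 calcium store genes, -1.59 for intermediate filament and dense-body genes, -1.43 for dense plaque genes, -0.71 for thin filament genes and -0.49 for the actins. The members of a role could lie far apart. In caveolae CAV1 had -4.13 and CAVIN1 -0.53. Among the myosin subunits MYH11 had -1.79, MYL9 -0.42 and MYL6 0.54.

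Ranking the members by the number of library pairs in which SWNT-SHP1i was lower gave CNN1 (25 of 25), then CSRP1, TAGLN, MYL9 and TPM2 (24 each), then LMOD1, DES, ACTA2, TPM1 and ACTG2 (23 each). Without replicate 6 the 10 best separated genes included 9 of these, and MYL6 took the place of ACTG2. At an unadjusted p under 0.05, 8 members stood out with all libraries and 9 without replicate 6 (25.7%, against 1.97% of all genes), of which 7 were shared. CNN1 was also the single member without overlap when replicate 6 was left out, as 0.815% of all genes were. In all of the 10 best separated genes but DES and TPM1, replicate 6 was above 0.5 of the mean of the other SWNT-SHP1i libraries. Leaving out replicate 5 instead gave 10 members with groups that did not overlap (28.6%, against 2.37% of all genes), namely DES, TPM1, CNN1, LMOD1, ACTA2, CAVIN1, MYL9, CSRP1, TPM2 and TAGLN, and a median fold change of -0.63. In the same fit 15 members (42.9%, against 3.48% of all genes) were lower at an unadjusted p under 0.05. Replicate 5 was the highest of its group for 27 members, so leaving it out lowers the group for these by construction. Leaving out SWNT replicate 1 gave 5 members without overlap (14.3%, against 0.838% of all genes) and leaving out SWNT replicate 4 gave 2 (5.71%, against 0.842%).

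Ratios within a library do not depend on the scaling between libraries, so 4 contractile genes were set against a relative that other cells use for the same task. The log2 ratio of CNN1 to CNN2, a calponin of non-muscle cells, was 4.005, 4.47, 3.97, 4.84 and 2.47 in SWNT-SHP1i libraries, against 4.87, 4.97, 5.03, 4.64 and 4.84 in SWNT libraries. The mean was 3.95 ± 0.90 in SWNT-SHP1i and 4.87 ± 0.15 in SWNT (SD, n = 5 each, difference -0.92, two-sided exact permutation p = 0.0238, adjusted over 4 ratios p = 0.0476). In all but SWNT-SHP1i replicate 5 it was under the whole SWNT range. In replicate 6 CNN1 was at its lowest, 1578 CPM, and CNN2 at its highest, 285 CPM. CNN2 was at 118 to 159 CPM in the other SWNT-SHP1i libraries and 133 to 170 CPM in SWNT libraries. The smallest p these groups allow is 0.00794. All 4 contractile genes come from the list chosen with earlier results of these data known and are among its best separated members. The p of the 4 ratios are therefore not an independent test.

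The log2 ratio of TPM2 to TPM4, a tropomyosin of non-muscle cells, was 2.21, 2.12, 2.15, 2.98 and 2.21 in SWNT-SHP1i libraries, against 2.60, 3.47, 3.01, 2.73 and 3.05 in SWNT libraries. Replicates 1, 2, 3 and 6 were nearly equal and all below the SWNT range (difference -0.64, exact permutation p = 0.0238, adjusted p = 0.0476). TAGLN over TAGLN2 had a mean of 4.41 ± 1.16 in SWNT-SHP1i and 5.57 ± 0.54 in SWNT (difference -1.16, exact permutation p = 0.0476, adjusted p = 0.0635). TAGLN2 is named here by position only. It was at 919 CPM in SWNT-SHP1i replicate 6, against 155 to 256 CPM in the other SWNT-SHP1i libraries and 142 to 301 CPM in SWNT libraries. The lowest TAGLN ratio, 2.47 in replicate 6, thus came with a high TAGLN2. TAGLN itself was at 5089 CPM in that library, above SWNT-SHP1i replicate 1 (4683 CPM). ACTA2 over ACTB, the cytoplasmic beta-actin, had 1.39 ± 0.43 in SWNT-SHP1i and 1.62 ± 0.09 in SWNT (difference -0.23, exact permutation p = 0.294, adjusted p = 0.294). The calls of both CNN1 over CNN2 and TPM2 over TPM4 were lost when any library other than SWNT-SHP1i replicate 5 was left out, with adjusted p of 0.0741 to 0.127. Macrophages and fibroblasts, whose marker sums had a higher median in SWNT-SHP1i, also use the non-muscle relatives, and their part in these ratios was not tested.

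**Figure D5:**
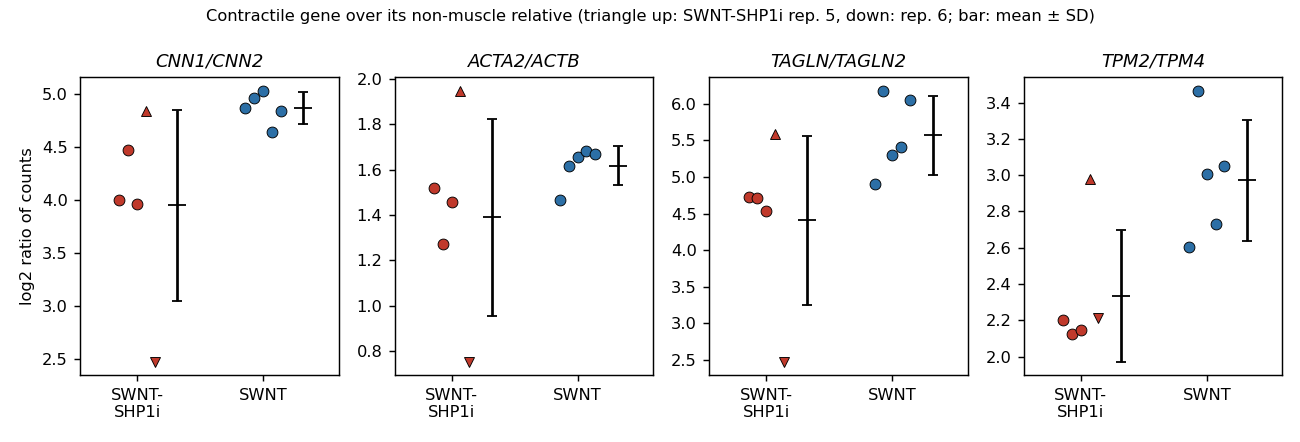
Log2 ratio of counts of a contractile gene to its non-muscle relative (vertical axes) in each library, SWNT-SHP1i left and SWNT right in each of 4 panels. Upward triangles mark SWNT-SHP1i replicate 5, downward triangles replicate 6, and bars the mean ± SD of 5 libraries. CNN1 over CNN2 and TPM2 over TPM4 are below the SWNT range in 4 of 5 SWNT-SHP1i libraries.

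In the other pathway lists given here the median fold change was nearer to 0 than in the members. Among 14 non-muscle relatives of the members, 7 had a negative and 7 a positive fold change with a median of -0.02, and 0 were called over all genes. Without SWNT-SHP1i replicate 6, 9 of 14 were negative, against 51.7% of all genes, with a median of -0.07. Without SWNT-SHP1i replicates 3 and 6, 10 of 14 were, against 48.8% of all genes, with a median of -0.07. The smallest p belonged to MYL12A, a regulatory light chain of non-muscle myosin (-0.39 ± 0.17, 95% interval -0.75 to -0.02), and TPM3, a tropomyosin named here by position only (0.45 ± 0.23, 95% interval -0.05 to 0.95).

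In the dystrophin complex and other adhesion genes, 17 of 20 had a negative fold change, against 49.2% of all genes, with a median of -0.22 and 0 called. Without SWNT-SHP1i replicate 6 there were 13 of 20, against 51.7% of all genes, with a median of -0.11. Without SWNT-SHP1i replicates 3 and 6 there were 9 of 20, against 48.8% of all genes, with a median of 0.01. The smallest p were those of LIMS2, an adaptor of integrin-linked kinase (-0.44 ± 0.21, 95% interval -0.90 to 0.02), and the laminin-binding integrin ITGA7 (-0.38 ± 0.22, 95% interval -0.87 to 0.11). Of 8 further caveola and calcium store genes tested, 7 had a negative fold change with a median of -0.27 and 0 called. Without SWNT-SHP1i replicate 6 there were 5 (median -0.05), and without SWNT-SHP1i replicates 3 and 6 there were 4 (median 0.04). The smallest p in this list belonged to the calcium channel ORAI1 (0.64 ± 0.37, 95% interval -0.18 to 1.45) and its activator STIM1 (-0.27 ± 0.17, 95% interval -0.64 to 0.10).

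Levels compared between genes are given as CPM per kilobase of exon. ACTA2 was first at 4125 ± 772 in SWNT-SHP1i and 5516 ± 1059 in SWNT (SD, n = 5 each), followed by TAGLN at 3011 ± 569 and 4802 ± 968, MYL9 at 2438 ± 479 and 4111 ± 1408, and CNN1 at 1933 ± 560.0 and 3463 ± 606 in the same groups. The first 5 places, with FLNA next, were the same in both groups, although within a group neighbours such as TAGLN and MYL9 overlapped in their spread. DES took place 11 in SWNT-SHP1i (791 ± 699.7), where its SD was close to its mean, and place 6 in SWNT (1827 ± 440.3). LPP was last in both, at 0.654 ± 0.574 in SWNT-SHP1i and 0.697 ± 0.156 in SWNT.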

How the data were processed

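Counts are whole reads per gene, deposited by the authors without normalization as 1 table of 35670 genes. Trim Galore, STAR, DESeq2 and the build Sscrofa11.1 are named in the submitters' processing notes, without versions. What counted the reads, with which strand setting and annotation, is not given in the sources used here. The exon length and coordinates of each gene come from the same table, per the file headers. The members and lists were chosen with earlier results of these data known.

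Members were matched by the gene name in the table, which names 17508 genes. For the other lists a further 1012 genes were named by RefSeq position on Sscrofa11.1 (shared span over joint span of 0.5 or more). Of 13851 named genes with such a match, 94.17% carried the same symbol. Libraries were checked for double deposition, where sampling noise gives a median chi-square of 0.455 per gene, and the closest of 45 pairs had 5.40. Replicate numbers follow accession order and pair no animals, and p-values set the difference between groups against the spread between these animals.

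Counts passing filterByExpr of edgeR 4.0.16 (R 4.3.3, minimum count 10, keeping 99.894% or more of each library's counts) were scaled by TMM. They were tested with the robust quasi-likelihood test without covariates, SWNT-SHP1i over SWNT, with Benjamini-Hochberg adjustment over all genes and a threshold of 0.05. The SE is the absolute log2 fold change over the square root of F, and 95% intervals use the test's degrees of freedom. Log2 CPM carry a prior count of 2. Ratios add 0.5 to each count and were tested over all 252 assignments of libraries. A further planned ratio, MYH11 over MYH10, was not made because MYH10 is not named in the table. The test was checked on simulated data. Values in every library are given for ACTA2, MYH11 and the 10 best separated members, and for MYL6, MYLK, PPP1R14A, ITGA8, CASQ2 and CAV1, chosen after their values were seen. In the other lists the 2 genes with the smallest p are named. 1 further list of pathway genes is not reported here. Alternatives were other scalings and filters, a non-robust fit, limma-voom (limma 3.58.1), DESeq2 1.42.0, a term for animals numbered B9, a threshold of 0.1 and libraries left out.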

Additional observations from a re-analysis of the deposited data

Results flagged for a closer look

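In each group of 5 libraries, the highest or lowest library was compared with the others, and its gap to the nearest was divided by the group's range and set against Dixon's 95% critical value of 0.71. Of 80 such checks over the members, their share of all counts and the ratios 9 exceeded it, where chance alone gives about 1 in 20, and genes of 1 library are not independent.

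SWNT-SHP1i replicate 6 was low for MYLK at 7.64 log2 CPM, DSTN at 8.34, PDLIM3 at 5.26, PGM5 at 5.58, CAV1 at 2.42 and PLN at 3.51. The same library was high within its group for PDLIM7 at 10.69 log2 CPM. SWNT replicate 4 was low for ACTG2 at 10.82 log2 CPM. SWNT-SHP1i replicate 5 was high for the log2 ratio of TPM2 to TPM4 at 2.98.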

How the results depend on the processing

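Among the 25 alternatives, adding 1 to each count applied to the ratios alone. Counts of 0 genes and 0 members called held in all the others, where the median log2 fold change of the members stayed between -0.63 and -0.25. The members with groups that did not overlap numbered 1 to 10 when 1 library was left out, with 10 without SWNT-SHP1i replicate 5, 5 without SWNT replicate 1 and 2 without SWNT replicate 4. With 1 library left out, the difference of the log2 ratio was -1.14 to -0.55 for CNN1/CNN2, -0.80 to -0.51 for TPM2/TPM4, -1.46 to -0.68 for TAGLN/TAGLN2 and -0.37 to -0.069 for ACTA2/ACTB. The ends nearest 0 came without SWNT-SHP1i replicate 6, except for TPM2/TPM4, where it was SWNT replicate 2. Without SWNT-SHP1i replicate 5 all 4 ratios had an adjusted p under 0.05 (adjusted exact permutation p = 0.0159 for ACTA2/ACTB and TAGLN/TAGLN2). That library was the highest of its group in all 4 ratios. Its removal therefore lowers the group by construction, and these p are no further evidence of a difference. Without SWNT-SHP1i replicates 3 and 6 the differences of CNN1/CNN2 and TPM2/TPM4 were -0.43 and -0.54 and their calls were lost (adjusted exact permutation p = 0.214 each). The cause of these shifts was not tested.

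The log2 fold change turned positive for 10 members in some alternative. With 1 library left out, it was -0.53 to 0.030 for CALD1, -0.25 to 0.081 for PDLIM3, -0.41 to 0.12 for NEXN, -0.70 to 0.14 for LPP, -0.40 to 0.029 for PGM5 and -0.29 to 0.22 for CAV1. Each of these was positive without SWNT-SHP1i replicate 6 (0.14 for LPP). LPP was also positive without SWNT-SHP1i replicate 2 (0.018), SWNT-SHP1i replicate 3 (0.14) or SWNT replicate 3 (0.0083). Without SWNT-SHP1i replicates 3 and 6 it was 0.054 for MYLK, 0.18 for CALD1, 0.019 for PDLIM3, 0.18 for NEXN, 0.068 for VCL, 0.46 for LPP, 0.17 for TNS1, 0.029 for PGM5, 0.21 for CAV1 and 0.065 for PLN. CAV1 was at 0.11 in limma-voom. In 2 alternatives chosen after seeing the data, LPP was at 0.25 in B9-numbered animals alone, and without replicate 6 under scaling from non-members CALD1 was at 0.047, PDLIM3 0.097, NEXN 0.13, LPP 0.15, PGM5 0.046 and CAV1 0.23.

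No paired analysis was possible because the labels give no replicate numbers that the groups share. LPP has only a few CPM, which limits what its values can show.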

Other observations

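Of the other cell type lists, Schwann cell markers, which mark nerve fibres of the adventitia, summed to 29.5 to 102 CPM in SWNT-SHP1i libraries and 122 to 159 CPM in SWNT libraries, without overlap. All 4 had a negative fold change, with the smallest p for the transcription factor SOX10 (-0.83 ± 0.29, SE, 95% interval -1.46 to -0.19) and the receptor ERBB3 (-1.07 ± 0.45, 95% interval -2.06 to -0.09), and 0 were called over all genes. Like most contractile genes, the sum was lowest in SWNT-SHP1i replicate 6 (29.5 CPM) and highest of its group in replicate 5 (102 CPM). Endothelial markers summed to 563 to 1497 CPM in SWNT-SHP1i and 373 to 1404 CPM in SWNT libraries, with the smallest p for the receptor KDR (0.64 ± 0.36, 95% interval -0.14 to 1.42) and the transcription factor ERG (-0.41 ± 0.30, 95% interval -1.07 to 0.25), and 5 of 7 had a positive fold change. Adipocyte markers summed to 73.1 to 316 CPM in SWNT-SHP1i and 48.8 to 421 CPM in SWNT libraries, and 4 of 5 had a negative fold change, with PLIN1 (-0.80 ± 0.90, 95% interval -2.75 to 1.15) and LEP (-1.06 ± 1.53, 95% interval -4.38 to 2.26) first by p. Erythroid genes summed to 25.7 to 236 CPM in SWNT-SHP1i and 47.9 to 1294 CPM in SWNT libraries, and all 3 had a negative fold change, with AHSP (-2.14 ± 1.12, 95% interval -4.58 to 0.30) and ALAS2 (-1.46 ± 0.81, 95% interval -3.22 to 0.30) first by p.

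Some members are neighbours in the genome. TPM2 and TLN1 lie within 48.7 kb on chromosome 1, and CSRP1, LMOD1 and PPP1R12B within 794.2 kb on chromosome 10. In the first group fold changes were -0.57 and -0.44, and in the second -0.80, -0.69 and -0.37.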
